A study of Mus musculus with 8 samples.

Results

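Kinesins are motor proteins that hydrolyse ATP to move along microtubules or to take them apart. Mitotic kinesins build the spindle, move chromosomes on it and finish cell division, and their mRNAs are known to peak in late G2 and mitosis. Transport kinesins carry vesicles, organelles and intraflagellar cargo, and other family members work in cilia or at microtubule ends. The family was taken as every row of the count table whose symbol is Kif, a number and at most 1 letter and 1 further digit, which gave 38 genes of 26642 rows. By their known roles, 12 are mitotic kinesins, 13 transport kinesins, 6 cilium kinesins and 7 kinesins of other or mixed roles.

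The RNA came from a mouse colon carcinoma line, CT26, grown in serum-containing medium. The cells carried a knockout of Tead1 and Tead4 (KO, 4 libraries) or were unedited (WT, 4 libraries). TEAD proteins bind DNA on behalf of YAP and TAZ, the Hippo pathway effectors. The labels do not say whether the KO is 1 clone or a pool, how the genes were disrupted, or whether the replicates are separate cultures, and p-values therefore cover only library-to-library spread, possibly all of it technical. Expression levels are in CPM, computed here with TMM-scaled library sizes. Fold changes are log2 values, KO minus WT, from edgeR's quasi-likelihood test over all 13265 rows with enough counts, and a gene is said to have risen or fallen where the Benjamini-Hochberg adjusted p was under 0.05. Tead1 was at 51.15, 64.8, 76.3 and 77.8 CPM in KO replicates 1 to 4, against 319, 155, 142 and 209 CPM in WT replicates 1 to 4, and fell by 1.61 on the log2 scale (SE 0.27, adjusted p = 0.00217). Tead4 was at 25.85, 23.3, 31.2 and 37.0 CPM in the KO libraries, against 52.1, 36.7, 39.4 and 63.2 CPM in the WT libraries, with a log2 fold change of -0.71 (SE 0.22, adjusted p = 0.0261), and its groups overlapped. Without KO replicate 2, KO replicate 3, WT replicate 1 or WT replicate 4 the Tead4 call was lost (highest adjusted p = 0.08). It was also lost when libraries were scaled by upper-quartile factors (0.0692) or by library size alone (0.08). The same held with WT replicates 1 and 4, and 2 and 3, summed as pairs (0.0653), and against WT replicates 2 and 3 alone (0.18).

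Total counts per library lay between 29679405 and 32774905. Across all rows 41.6% were called, 20.6% lower and 20.9% higher in KO (2734 and 2779 rows), and the median log2 fold change was 0.02. With upper-quartile factors the split was 1962 lower and 3580 higher, and with library size alone 2001 and 3474, and both scalings moved the median over all rows to 0.20. A pair of WT libraries, replicates 1 and 4, were closer to each other than to the rest, and so were replicates 2 and 3 (chi-square per degree of freedom 34.7 and 35.0, against 201.5 to 241.5 for the other WT pairs); the labels name no shared culture or preparation. KO replicate 1 had a count above 0 in 14345 rows, the other KO libraries in 17759 to 17948, and the WT libraries in 14566 to 15430. Of the markers of colon epithelium, Epcam was at 0 in all 8 libraries and Cdh1, Krt19 and Cdx2 were at or below 0.153 CPM, while Krt18 was at 88.85, 69.95, 75.0 and 71.3 CPM in the KO libraries, against 36.25, 37.6, 37.2 and 42.8 CPM in the WT libraries. In all, 2 of 4 tested colon epithelium markers were higher in KO, with a summed level of 110.3 to 144.7 CPM in KO and 56.9 to 106.7 CPM in WT. Of 6 tested fibroblast markers 4 were higher in KO, with a summed level of 1744 to 2341 CPM in KO and 1409 to 2127 CPM in WT, and the other 2 markers of that list, Lum and Thy1, were at or below 0.489 CPM. Of 9 leukocyte markers the 2 that were tested (Cd14 and Lyz2) were higher in KO, with a summed level of 48.7 to 70.7 CPM in KO and 18.2 to 37.7 CPM in WT, and Cd3e and Adgre1 were at 0 in every library. Of 3 tested neuron markers 1 was higher in KO (Syt1), with a summed level of 59.9 to 76.0 CPM in KO and 40.6 to 59.0 CPM in WT, and the endothelium markers summed to at most 0.52 CPM. The part of these marker changes in the kinesin results was not tested.

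Among the 12 mitotic kinesins, 11 were tested, 10 fell and none rose (90.9% called, against 41.6% of all rows). All 10 fell by at least 2-fold, between 2.82-fold and 4.19-fold, whereas 8.56% of all rows were called and at least 2-fold lower. The median log2 fold change of the 11 was -1.73, beside 0.02 over all rows. In all 10 that fell every KO library lay below every WT library, as in 19.6% of all rows; groups that did not overlap in either direction made up 40.7% of them. In bulk RNA, fewer cells in mitosis and less of these mRNAs per cell cannot be told apart.

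The KO libraries were not alike. KO replicate 1 was the highest KO library for all 11 tested mitotic kinesins, at 48.0% to 91.7% of the WT mean, while the mean of KO replicates 2 to 4 was at 13.6% to 23.9% of it. In 10 of the 11 the level fell at each step from KO replicate 1 to KO replicate 4, so replicates 2 to 4 also differed among themselves. The highest KO library exceeded the lowest by 3.35-fold to 7.99-fold, and the highest WT library the lowest by 1.15-fold to 2.15-fold; the KO spread was the wider in 11 of 11. Without KO replicate 1 all 11 were called, with log2 fold changes from -2.90 (Kif20a) to -2.08 (Kif23).

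**Figure D1:**
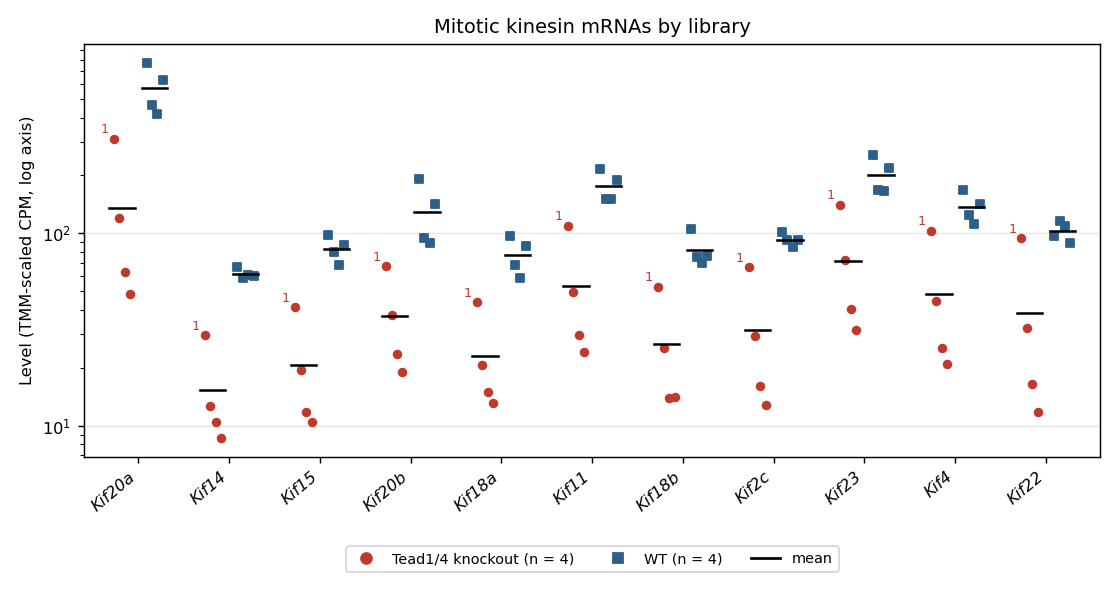
Level of each tested mitotic kinesin in CPM (log axis) in the 4 Tead1/4 knockout libraries (circles, left of each pair) and the 4 WT libraries (squares, right), with group means as bars and knockout replicate 1 marked 1. The knockout libraries lie below the WT libraries for 10 of the 11 genes, and replicate 1 is the highest knockout library in each.

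Promoters of genes that are transcribed late in the cell cycle are known to carry a cell cycle homology region (CHR) close to the start site, often with CCAAT boxes that NF-Y binds. The 300-base promoter windows of RefSeq (GRCm38.p6; 250 bases before to 50 after each annotated start) were searched on both strands for the CHR letters TTTGAA or TTCGAA, for CCAAT and for the TEAD letters GGAATG; no motif contains another, and TTCGAA reads the same on both strands. A window was given for 31 of the 38 genes. Of the 11 mitotic kinesins with a window, 9 held a CHR (81.8%, against 19.2% of all 32851 windows), 7 held a CCAAT (63.6%, against 37.4%) and 6 held both (54.5%, against 7.52%). For Kif14, Kif2c and Kif4 the whole window lies inside the annotated gene. The CHR of Kif14 and Kif2c is at positions -228 and -103 from the annotated start. A CHR that started from 50 bases before the start site onwards was found in 7 of the 11 (63.6%, against 5.31% of all windows). None of the 11 held the TEAD letters, which 14.7% of all windows hold. Of the 10 transport kinesins with a window, 1 held a CHR (Kif1a), 3 a CCAAT and 2 the TEAD letters (Kif17, and Kif3b outside the stretch printed). The Kif1a CHR is in a window inside the gene, and the window at the start of that gene holds none. The Kif17 window also lies inside its gene. A match is a run of letters and not a shown binding site, and a window without a match says only that the letters are not in it. The sequences printed are the 5 mitotic kinesins that hold both a CHR near the start and a CCAAT, then Kif24, a cilium kinesin that fell and also holds both, and Kif3b, a transport kinesin that rose and holds no CHR. They run from 120 bases before the annotated start to 30 after it, 5′ to 3′ on the gene's strand, with CHR and CCAAT letters of either strand in capitals.
Kif11: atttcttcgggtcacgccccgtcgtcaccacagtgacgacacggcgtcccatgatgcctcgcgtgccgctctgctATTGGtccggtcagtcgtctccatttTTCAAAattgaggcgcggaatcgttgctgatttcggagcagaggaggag
Kif18b: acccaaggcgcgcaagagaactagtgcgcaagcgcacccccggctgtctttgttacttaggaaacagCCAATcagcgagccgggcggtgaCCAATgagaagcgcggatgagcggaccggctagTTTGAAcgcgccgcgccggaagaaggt
Kif22: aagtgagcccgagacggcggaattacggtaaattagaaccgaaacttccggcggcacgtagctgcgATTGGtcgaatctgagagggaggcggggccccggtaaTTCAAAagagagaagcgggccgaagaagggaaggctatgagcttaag
Kif23: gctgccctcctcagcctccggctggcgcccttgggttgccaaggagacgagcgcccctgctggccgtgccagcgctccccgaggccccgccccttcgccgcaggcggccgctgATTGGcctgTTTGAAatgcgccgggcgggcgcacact
Kif4: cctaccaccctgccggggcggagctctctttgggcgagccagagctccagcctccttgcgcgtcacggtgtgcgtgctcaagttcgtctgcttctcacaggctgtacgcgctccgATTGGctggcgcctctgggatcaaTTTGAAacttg
Kif24: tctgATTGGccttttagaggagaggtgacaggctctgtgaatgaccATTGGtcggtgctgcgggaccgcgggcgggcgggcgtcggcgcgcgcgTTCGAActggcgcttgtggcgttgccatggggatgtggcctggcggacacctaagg
Kif3b: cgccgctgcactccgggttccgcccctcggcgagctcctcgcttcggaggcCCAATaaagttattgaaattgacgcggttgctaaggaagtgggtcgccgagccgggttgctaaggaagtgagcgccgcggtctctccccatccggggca
The stretches lie at chr19:37376262-37376411 (plus strand) for Kif11, chr11:102925095-102925244 (minus strand) for Kif18b, chr7:127042391-127042540 (minus strand) for Kif22 and chr9:61946770-61946919 (minus strand) for Kif23. Those of Kif4, Kif24 and Kif3b lie at chrX:100625945-100626094 (plus strand), chr4:41464819-41464968 (minus strand) and chr2:153291296-153291445 (plus strand). In Kif11 and Kif22 the CHR starts 19 and 17 bases before the start site, whereas in Kif18b, Kif23 and Kif4 its first base is 4, 3 and 20 bases after it. Kif20b, not printed, holds 2 CHR copies that start 8 and 14 bases after its start.

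**Figure D2:**
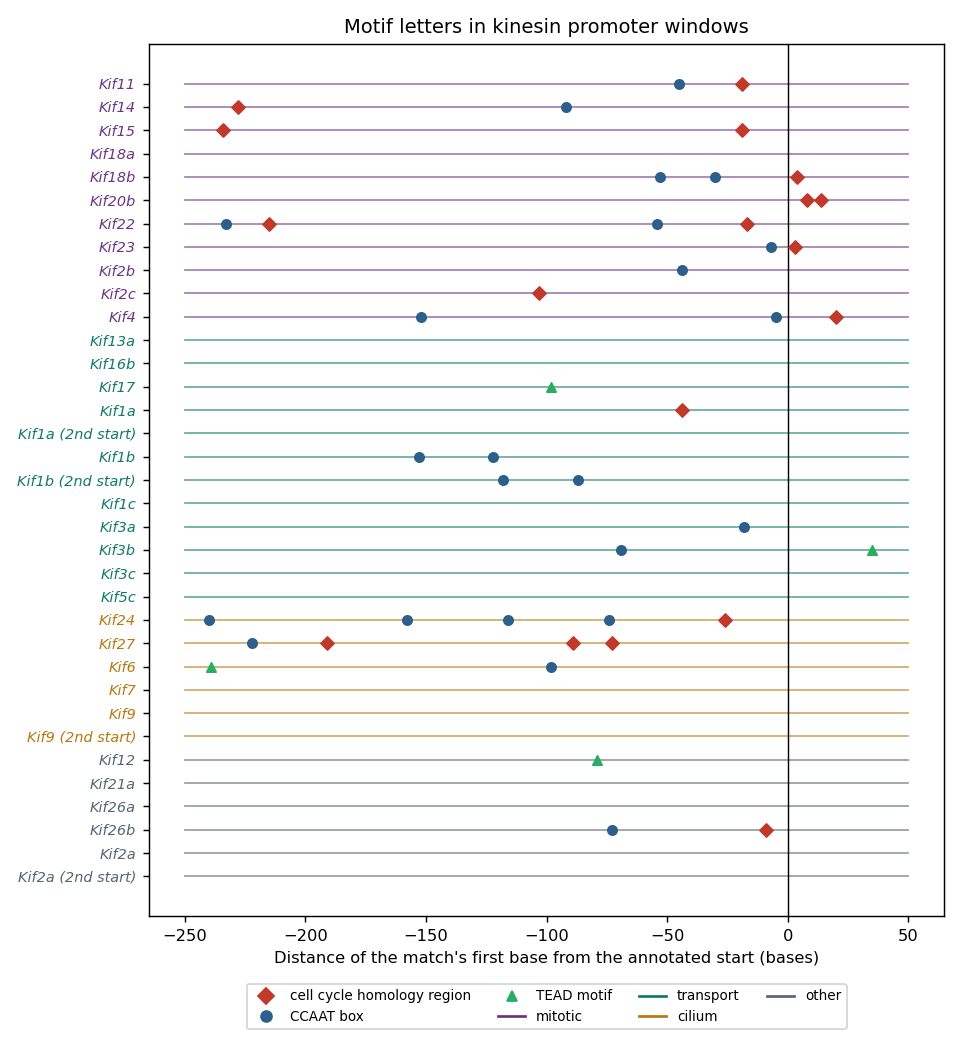
Matches to the CHR (diamonds), CCAAT (circles) and TEAD letters (triangles) in the RefSeq promoter windows of the kinesin genes, by the distance in bases of the match's first base from the annotated start (vertical line), with 1 line for each window and name colours for the classes. CHR matches at or after 50 bases before the start are found in 7 of 11 mitotic kinesins and in 1 of 10 transport kinesins.

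Kif11 is the main motor that pushes the spindle poles apart, by sliding antiparallel microtubules, and Kif15 can help to keep the poles apart. Kif11 was at 109.6, 49.4, 29.8 and 24.05 CPM in KO replicates 1 to 4, against 215, 151, 151 and 189 CPM in WT replicates 1 to 4. All 4 KO libraries lay below the WT libraries, and the log2 fold change was -1.73 (SE 0.43, adjusted p = 0.0109). Kif15 (ENSMUSG00000036768, chr9:122951046-123018733, plus strand of GRCm38) was at 41.2, 19.5, 11.8 and 10.5 CPM in the KO libraries, against 98.2, 79.6, 68.6 and 86.75 CPM in the WT libraries. Its groups were also apart, with a log2 fold change of -2.01 (SE 0.40, adjusted p = 0.00459), about 4.02-fold lower in KO.

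Kif18a, Kif18b, Kif2c and Kif2b shorten or cap microtubules: Kif18a dampens chromosome movements at the metaphase plate, Kif18b acts on astral microtubules, and Kif2c and Kif2b help correct wrong attachments at centromeres. Kif18a was at 44.0, 20.6, 14.95 and 13.1 CPM in the KO libraries, against 97.0, 68.5, 58.7 and 86.1 CPM in the WT libraries. The groups did not overlap, and the log2 fold change was -1.74 (SE 0.37, adjusted p = 0.00582). Kif18b was at 52.7, 25.3, 13.99 and 14.2 CPM in the KO libraries, against 106, 75.0, 70.05 and 75.8 CPM in the WT libraries. It fell by 1.62 on the log2 scale (SE 0.40, adjusted p = 0.0113), and WT replicate 1 stood above the other WT libraries. Kif2c was at 66.9, 29.4, 16.1 and 12.8 CPM in the KO libraries, against 102, 92.6, 84.8 and 92.0 CPM in the WT libraries. Here KO replicate 1 reached 72.1% of the WT mean and the other KO libraries 21.0% on average, and the log2 fold change was -1.57 (SE 0.45, adjusted p = 0.0203). Kif2b had no count in any library; at these depths 3 counts, taken as the limit that a count of 0 allows, correspond to 0.0873 to 0.11 CPM, and this limit covers counting error only.

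Kif4 and Kif22 are chromokinesins, motors that sit on chromosome arms and push them away from the poles; Kif4 also takes the crosslinker Prc1 to the central spindle. Kif4 was at 103, 44.6, 25.45 and 20.8 CPM in the KO libraries, against 168, 124, 112 and 143 CPM in the WT libraries. The groups were apart, with KO replicate 1 close to the lowest WT library, and the log2 fold change was -1.50 (SE 0.45, adjusted p = 0.0243). Kif22 was at 94.0, 32.3, 16.5 and 11.8 CPM in the KO libraries, against 96.45, 116, 109 and 88.8 CPM in the WT libraries. It was the mitotic kinesin that did not pass: KO replicate 1 lay within the range of the WT libraries, and the log2 fold change was -1.41 (SE 0.55, adjusted p = 0.0645). A two-sided exact permutation of log2 CPM over the 70 assignments gave p = 0.0571 for Kif22, and 0.0286, the smallest that it can give, for each of the other 10. DESeq2 and limma-voom called Kif22 (adjusted p = 0.0152 and 0.0144). Without KO replicate 1 the Kif22 log2 fold change was -2.36 (adjusted p = 0.000944). Kif22-ps and Kif4-ps are annotated as processed pseudogenes, and both levels are uncertain to the extent that reads matching several places were shared.

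Kif23, Kif20a, Kif20b and Kif14 work at the central spindle and in cytokinesis. Kif23, which forms the centralspindlin complex with Racgap1, was at 141, 73.0, 40.25 and 31.6 CPM in the KO libraries, against 255, 168, 166 and 218 CPM in the WT libraries. The groups were apart and the log2 fold change was -1.50 (SE 0.42, adjusted p = 0.0188). Kif20a, which brings the chromosomal passenger complex to the midzone, was at 311, 120.4, 63.0 and 48.3 CPM in the KO libraries, against 771, 463, 418 and 624 CPM in the WT libraries. Its fold change was the largest of the 26 tested genes, -2.07 (SE 0.54, adjusted p = 0.0135) on the log2 scale, 4.19-fold lower in KO. Kif20b, which acts late in cytokinesis, was at 67.6, 37.8, 23.6 and 19.1 CPM in the KO libraries, against 191, 94.2, 88.8 and 143 CPM in the WT libraries. WT replicates 1 and 4 were the higher WT libraries, all KO libraries lay below WT, and the log2 fold change was -1.80 (SE 0.41, adjusted p = 0.00758). Kif14 (ENSMUSG00000041498, chr1:136466343-136531511, plus strand of GRCm38), which helps place citron kinase at the midbody, was at 29.5, 12.7, 10.4 and 8.65 CPM in the KO libraries, against 66.9, 58.4, 61.0 and 59.9 CPM in the WT libraries. Its WT libraries were the closest together of the mitotic kinesins, and the log2 fold change was -2.01 (SE 0.35, adjusted p = 0.00267).

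Per kb of transcript, Kif20a was the most abundant of the 38 genes in the WT libraries, at 36.9 ± 32.9 CPM per kb in KO and 155 ± 43.8 CPM per kb in WT (SD, n = 4 each). Kif23 followed at 21.0 ± 14.6 CPM per kb in KO and 59.35 ± 12.65 CPM per kb in WT, and Kif22 at 18.3 ± 17.9 CPM per kb in KO and 48.5 ± 5.81 CPM per kb in WT; in WT these 2 did not differ beyond their spread. Kif14 was the lowest of the 11, at 1.71 ± 1.08 CPM per kb in KO and 6.88 ± 0.414 CPM per kb in WT.

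Limits of single libraries applied to 3 of the mitotic calls. Kif4 lost its call without KO replicate 2, KO replicate 3 or WT replicate 1 (adjusted p = 0.0664, 0.0562 and 0.0625), Kif23 without KO replicate 2 or WT replicate 1 (0.0502 and 0.0519) and Kif2c without KO replicate 2 (0.0572), while leaving out KO replicate 1 moved Kif20a to -2.90, Kif11 to -2.37, Kif15 to -2.59, Kif18b to -2.21, Kif2c to -2.27 and Kif4 to -2.19. Counting the close WT libraries as 2 units, summed, left 4 calls (Kif14, Kif15, Kif18a and Kif20b) with a median log2 fold change of -1.76; against WT replicates 1 and 4 alone 9 were called (median -1.94), and against replicates 2 and 3 alone 2 (Kif14 and Kif15, median -1.51). On opposite strands, 1271 exon bases of Kif20a overlap Cdc23 (log2 fold change -0.72) and 832 of Kif4 overlap Pdzd11 (-0.29, not called), and whether counting used strand was not stated by the submitters.

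Of the 13 transport kinesins, 10 were tested: 2 fell (Kif13a and Kif5b), 2 rose (Kif3b and Kif13b) and 6 did not pass, so that 40% were called, against 41.6% of all rows. Their median log2 fold change was -0.05, beside -1.73 for the mitotic kinesins and 0.02 over all rows. The fitted log2 fold changes ran from -0.54 to 1.37 for the 10 transport genes and from -2.07 to -1.41 for the 11 mitotic genes. The split depended on the scaling: 1 fell and 4 rose with upper-quartile factors, and 0 fell and 3 rose with library size alone. With either of these the transport median was 0.13, where the median over all rows was 0.20. The exact permutation test gave its smallest p, 0.0286, for the 4 called transport genes and Kif16b, for Kif24, and for Kif2a and Kif21a. That p follows whenever the groups do not overlap, so it adds nothing to that description. Groups were apart in 5 of the 10 transport genes, against 40.7% of all rows.

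**Figure D3:**
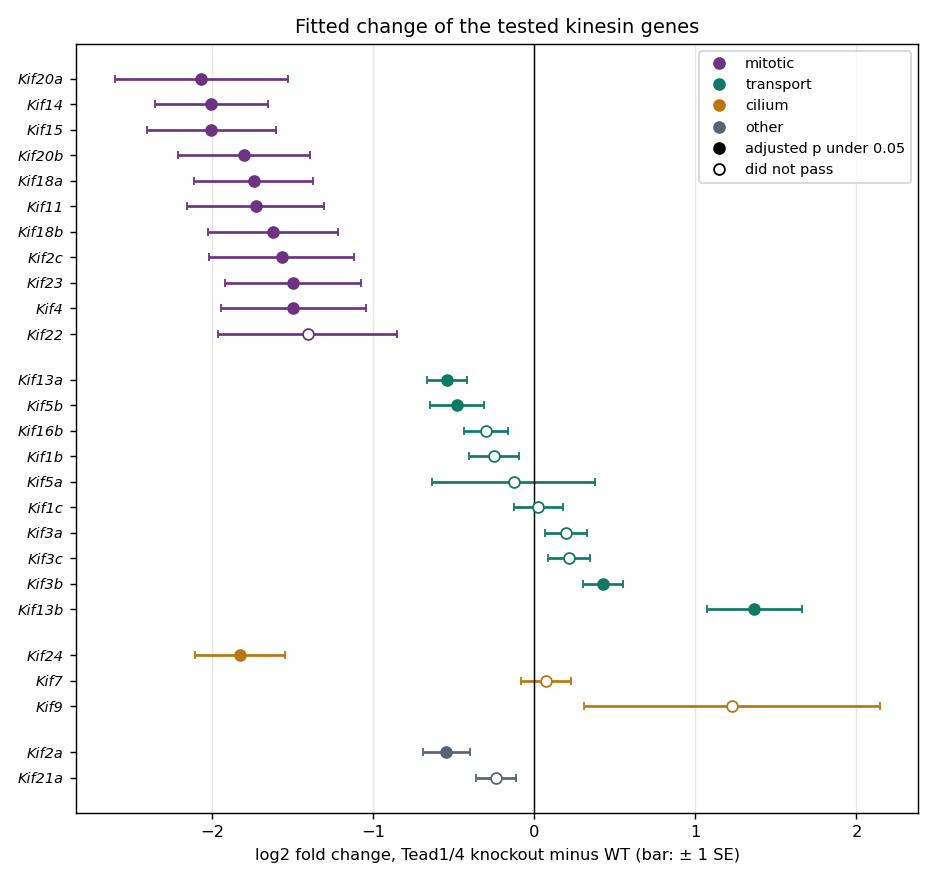
Fitted log2 fold change of the 26 tested kinesin genes, Tead1/4 knockout minus WT, with bars of 1 SE, grouped and coloured by class; filled points had an adjusted p under 0.05. All 11 mitotic kinesins lie at -1.41 or lower, and the transport kinesins lie between -0.54 and 1.37.

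Kinesin-1 carries vesicles, mitochondria and RNA granules, and its heavy chains are Kif5a, Kif5b and Kif5c. Kif5b, the widely expressed one, was at 201, 186, 196 and 213 CPM in the KO libraries, against 345, 233, 222 and 312 CPM in the WT libraries. The KO libraries were close together and below WT, where replicates 1 and 4 were the higher, and the log2 fold change was -0.48 (SE 0.17, adjusted p = 0.0446). That call was lost in 5 of the 8 fits that leave out a library (adjusted p up to 0.115), under library size alone (0.146), under upper-quartile factors (0.137) and under both other filters (0.0723 and 0.0750). Kif5a, known mainly from neurons, was low, at 0.348 to 1.22 CPM in KO and 0.341 to 0.887 CPM in WT, with a log2 fold change of -0.13 (SE 0.51, adjusted p = 0.857). Kif5c, also neuronal, had 0, 10, 21 and 6 counts in the KO libraries and 0, 8, 2 and 0 in WT and was not tested.

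Kinesin-2 drives intraflagellar and vesicle transport as a heterodimer of Kif3a with Kif3b or Kif3c. Kif3b was at 85.6, 88.9, 80.2 and 81.3 CPM in the KO libraries, against 64.4, 67.5, 56.1 and 62.0 CPM in the WT libraries. All KO libraries lay above all WT libraries, as did 21.1% of all rows, and it rose by a log2 fold change of 0.43 (SE 0.12, adjusted p = 0.0201); without KO replicate 2, WT replicate 3 or WT replicate 4 the adjusted p was 0.0562, 0.0505 and 0.0579. Kif3a ranged from 32.8 to 39.98 CPM in KO and from 27.8 to 33.9 CPM in WT, and its log2 fold change was 0.20 (SE 0.13, adjusted p = 0.247). Kif3c ranged from 49.0 to 59.3 CPM in KO and from 41.1 to 51.1 CPM in WT (log2 fold change 0.22, SE 0.13, adjusted p = 0.212), and 2617 of its exon bases overlap an antisense transcript. With upper-quartile factors Kif3a and Kif3c passed, at 0.38 and 0.40 (adjusted p = 0.0453 and 0.0369), and Kif3c also with library size alone, at 0.40 (0.0457). Kif17, a homodimer of the same family known from dendrites and cilia, had 0, 11, 6 and 5 counts in the KO libraries and 0 in all WT libraries and was not tested; it shares 74 exon bases with Sh2d5 on the same strand, whose log2 fold change was 1.31 (adjusted p = 0.00746).

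Kinesin-3 motors move membrane cargo: Kif1b takes mitochondria and synaptic vesicle precursors, Kif1c vesicles, Kif16b early endosomes, Kif13a recycling endosomes and Golgi-derived vesicles, and Kif13b carries the scaffold protein Dlg1. Kif13b (ENSMUSG00000060012, chr14:64647265-64809617, plus strand of GRCm38) was at 26.1, 42.4, 50.9 and 46.0 CPM in the KO libraries, against 11.15, 20.65, 21.6 and 10.7 CPM in the WT libraries. KO replicate 1 was its lowest KO library and still above every WT library, and the rise of 2.58-fold had a log2 fold change of 1.37 (SE 0.29, adjusted p = 0.00612). WT replicates 1 and 4 were the lower WT libraries, so the size of the rise depends on which close WT pair is compared. Kif13a, its closest relative, was at 57.85, 57.3, 67.1 and 67.9 CPM in the KO libraries, against 92.7, 91.1, 88.1 and 92.7 CPM in the WT libraries. The groups were apart in the opposite direction, with a log2 fold change of -0.54 (SE 0.12, adjusted p = 0.00765); with library size alone it was -0.36 and no longer called (0.0635). The log2 ratio of Kif13b to Kif13a was -1.15, -0.44, -0.40 and -0.56 in the KO libraries, against -3.05, -2.14, -2.02 and -3.11 in WT, a difference in means of 3.85-fold that was computed for 7 pairs of related kinesins and is given without a test.

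Kif1c was at 235, 233, 218 and 210.3 CPM in the KO libraries, against 186, 253, 250.4 and 191 CPM in the WT libraries. The KO libraries lay within the WT range, where replicates 1 and 4 were the lower, and the log2 fold change was 0.03 (SE 0.15, adjusted p = 0.907), with a sign that depended on the libraries used. Kif1b was at 91.0, 115, 132 and 139 CPM in the KO libraries, against 158, 139, 138 and 132 CPM in the WT libraries. KO replicates 1 and 2 lay below WT, and replicates 3 and 4 at or within its range (log2 fold change -0.25, SE 0.16, adjusted p = 0.222). Kif16b ranged from 37.9 to 47.7 CPM in KO and from 48.7 to 56.9 CPM in WT, so that its groups did not overlap, but its log2 fold change did not pass (log2 fold change -0.30, SE 0.14, adjusted p = 0.0993; without KO replicate 1, 0.0455). Kif1a, a neuronal motor, had no count in any library.

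**Figure D4:**
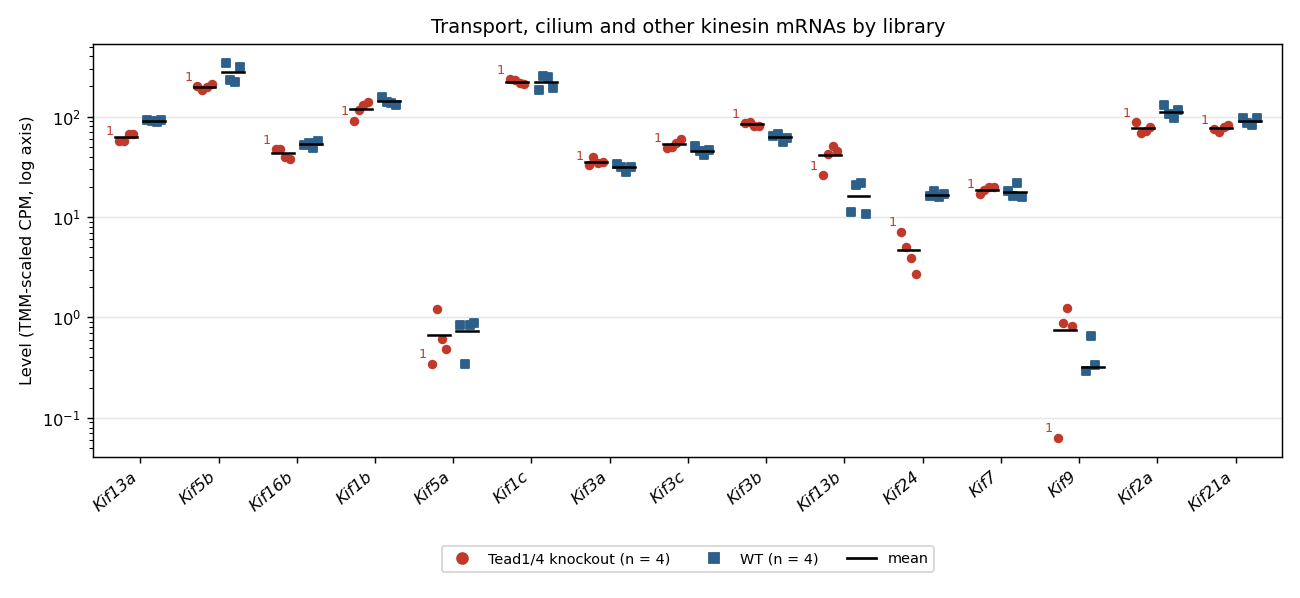
Level in CPM (log axis) of the tested transport, cilium and other kinesins in the 4 Tead1/4 knockout libraries (circles, left) and the 4 WT libraries (squares, right), with group means as bars and knockout replicate 1 marked 1; WT replicate 4 of Kif9 is 0 and cannot be drawn on a log axis. Kif13b and Kif3b are higher in every knockout library than in any WT library. Kif24, Kif13a, Kif5b, Kif16b, Kif2a and Kif21a are lower in every knockout library than in any WT library.

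Of the cilium kinesins 3 of 6 were tested, and 1 fell (33.3% called, against 41.6% of all rows). Kif24 (ENSMUSG00000028438, chr4:41390745-41464887, minus strand of GRCm38), which restrains the assembly of the primary cilium at the mother centriole, was at 7.17, 4.99, 3.93 and 2.72 CPM in the KO libraries, against 16.15, 17.99, 15.8 and 16.9 CPM in the WT libraries. All KO libraries were below WT, with KO replicate 1 the highest of them, and the log2 fold change was -1.83 (SE 0.28, adjusted p = 0.00156), 3.55-fold lower; the call held in every alternative run. Kif7, which organises the cilium tip in Hedgehog signalling, was at 17.2, 18.5, 19.7 and 19.9 CPM in the KO libraries, against 18.03, 16.1, 21.6 and 15.9 CPM in the WT libraries. Its groups overlapped (log2 fold change 0.07, SE 0.16, adjusted p = 0.734). Kif9, known from motile cilia and sperm tails, was near the detection limit, at 0.0632, 0.883, 1.25 and 0.825 CPM in the KO libraries, against 0.294, 0.6485, 0.337 and 0 CPM in the WT libraries (log2 fold change 1.23, SE 0.92, adjusted p = 0.303). Kif27, of motile cilia, had 0, 8, 15 and 10 counts in the KO libraries and 0, 5, 8 and 18 in WT, and Kif6 and Kif19a had none anywhere.

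Among the kinesins of other roles, Kif2a, a microtubule depolymerase of neurites and spindle poles, was at 87.8, 68.4, 72.5 and 78.5 CPM in the KO libraries, against 130.2, 105, 96.6 and 116.7 CPM in the WT libraries. The groups were apart and it fell by 0.55 on the log2 scale (SE 0.14, adjusted p = 0.0145), a call that was lost without KO replicate 2 or 3 (0.0506 and 0.0504). Of its exon bases 1229 overlap Dimt1 on the opposite strand, which fell by 1.08. Kif21a, which slows microtubule growth at the cell cortex, was at 75.3, 70.4, 78.9 and 82.0 CPM in the KO libraries, against 95.9, 86.1, 82.9 and 97.1 CPM in the WT libraries. It was lower in every KO library than in any WT library but did not pass (log2 fold change -0.24, SE 0.12, adjusted p = 0.144). The log2 ratio of Kif2c to Kif2a, its mitotic relative over the more widely used form, was -0.39, -1.22, -2.17 and -2.61 in the KO libraries, against -0.36, -0.19, -0.19 and -0.34 in WT.

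The rest of this class was barely detected. Kif21b had 0, 4, 5 and 8 counts in the KO libraries and 4, 11, 0 and 0 in WT, and Kif26b had 0, 11, 2 and 13 in KO and 0, 3, 6 and 0 in WT. Kif26a had 6 counts in KO replicate 2 alone, Kif28 had 1 or 2 in each library, and Kif12 none. KO replicate 1 had no count for Kif17, Kif5c, Kif27, Kif21b, Kif26a or Kif26b, and it was also the KO library with the fewest rows above 0.

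Summed over each class per kb of transcript, the mitotic kinesins reached 290.4, 125, 70.2 and 56.4 CPM per kb in KO replicates 1 to 4, against 567, 402, 373 and 475 CPM per kb in WT replicates 1 to 4. The transport kinesins reached 129, 134, 133 and 136 CPM per kb in KO, against 153, 143, 136 and 145 CPM per kb in WT, so that the ranges just overlapped. The mitotic class made up 64.15, 43.4, 29.9 and 25.1% of the kinesin sum in the KO libraries, against 74.0, 68.7, 68.1 and 71.6% in WT. In KO replicates 2 to 4 the transport sum exceeded the mitotic sum, and in KO replicate 1 and all WT libraries the mitotic sum was the larger. Of the most abundant transport genes, Kif5b was at 33.0 ± 1.87 CPM per kb in KO and 46.1 ± 9.89 CPM per kb in WT and Kif1c at 33.5 ± 1.79 CPM per kb in KO and 32.9 ± 5.46 CPM per kb in WT (SD, n = 4 each).

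**Figure D5:**
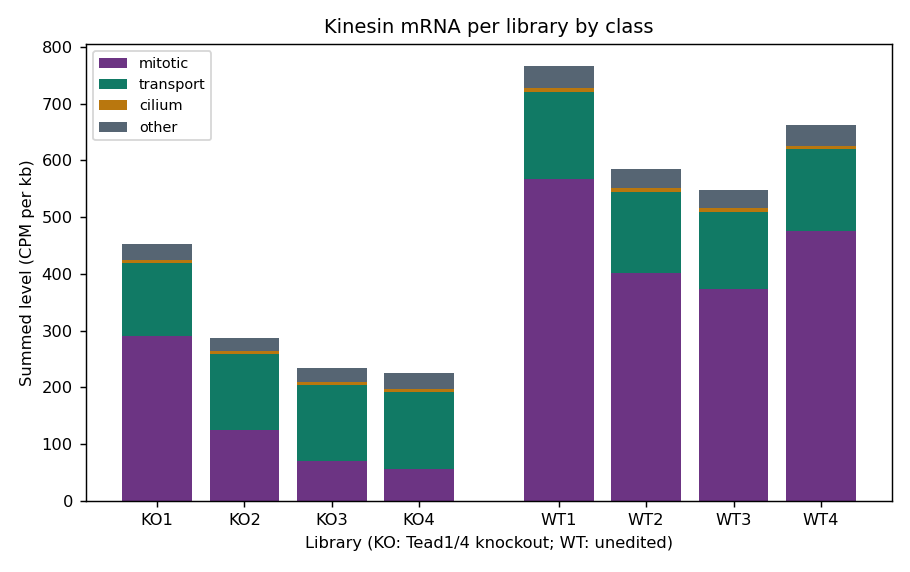
Summed level of the kinesin genes in CPM per kb of transcript, stacked by class, in each Tead1/4 knockout library (left) and each WT library (right). The mitotic part is 56.4 to 290.4 in the knockout libraries and 373.1 to 567.3 in the WT libraries, and the transport part is 129.1 to 136 in the knockout libraries and 135.7 to 153.3 in the WT libraries.

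Further kinesin genes have symbols outside the pattern and were read as a separate set. Cenpe, the kinetochore motor that carries chromosomes to the metaphase plate, was at 135, 55.9, 42.3 and 31.5 CPM in the KO libraries, against 322, 215, 194 and 264 CPM in the WT libraries. It fell by 1.91 on the log2 scale (SE 0.42, adjusted p = 0.00667), with KO replicate 1 again the highest KO library. Against WT replicates 2 and 3 alone the Cenpe call was lost (adjusted p = 0.0673). Kifc3, a minus-end motor of junctions and the Golgi, had a log2 fold change of -0.69 (SE 0.19, adjusted p = 0.0175). Its call was lost without KO replicate 3 or 4 (0.0521 and 0.0528). The Kifc3 call was also lost with the close WT libraries summed (0.0747) and against WT replicates 2 and 3 alone (0.0724). Kifc2, a minus-end motor known from neurons, was at 2.02, 6.24, 6.81 and 8.01 CPM in the KO libraries, against 0.589, 1.33, 1.415 and 0.781 CPM in the WT libraries, and rose (log2 fold change 2.48, SE 0.47, adjusted p = 0.00376). Kifc1, the minus-end motor that focuses spindle poles, was at 84.9, 38.3, 24.7 and 22.7 CPM in the KO libraries, against 46.2, 87.0, 102 and 40.04 CPM in the WT libraries. KO replicate 1 reached the WT range, WT replicates 1 and 4 lay between KO replicates 1 and 2, and the log2 fold change did not pass (log2 fold change -0.69, SE 0.45, adjusted p = 0.24). Kifc5b, a near-identical copy that can share reads with Kifc1, did not pass either (log2 fold change -0.83, SE 0.37, adjusted p = 0.0982). Without KO replicate 1 both passed, Kifc1 at -1.29 (0.0189) and Kifc5b at -1.28 (0.00943).

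Most partners of the mitotic kinesins fell. Of 19 spindle and cytokinesis partners 15 fell and none rose (median log2 fold change -1.40), where 20.6% of all rows fell and 20.9% rose. Kntc1, of the kinetochore complex that recruits dynein, had a log2 fold change of -1.58 (SE 0.27, adjusted p = 0.00244). Cit, the citron kinase that Kif14 binds, had -1.78 (SE 0.35, adjusted p = 0.00455), and Ect2, the exchange factor that centralspindlin recruits, had -2.22 (SE 0.45, adjusted p = 0.0051). Of 16 mitotic entry genes 10 fell and none rose (median -1.45), against the same 20.6% lower over all rows, with Cenpf, Mki67 and Nek2 at -2.37, -2.18 and -1.75 (adjusted p = 0.00402, 0.00514 and 0.00975). The other 6 (Cdk1, Cdc25c, Cdc20, Ccnb2, Cenpa and Pttg1) did not pass, and their groups overlapped. In these 6, KO replicate 1 was at 98.2% to 180.6% of the WT mean. The mean of KO replicates 2 to 4 was at 19.6% to 45.2% of it. Without KO replicate 1 the log2 fold change was -2.90 for Ect2, -2.97 for Cenpf and -2.38 for Nek2. The Nek2 call was lost with the close WT libraries summed (adjusted p = 0.0542). Against WT replicates 2 and 3 alone, Mki67 and Nek2 lost their calls (adjusted p = 0.0564 and 0.063). Of 16 genes of the complexes that bind CHR, E2F and CCAAT sites 12 fell and none rose (median -1.36), again beside 20.6% lower over all rows. Among them the dimer partner Tfdp1 was at 182, 140.1, 115 and 114 CPM in the KO libraries, against 332, 339, 368 and 351 CPM in the WT libraries (log2 fold change -1.33, SE 0.17, adjusted p = 0.000871), and the pocket protein Rbl1 and its partner E2f4 had -1.38 and -1.82 (adjusted p = 0.00258 and 0.00269). E2f4 was at 394 and 405 CPM in WT replicates 1 and 4, against 172 and 175 CPM in WT replicates 2 and 3.

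Of 17 tested adaptors of the transport kinesins, of 20 listed, 1 fell, 2 rose and 14 did not pass (median -0.01), where 20.6% of all rows fell and 20.9% rose. The 2 that rose are kinesin light chains, which link kinesin-1 to cargo: Klc4 was at 24.4, 28.6, 26.5 and 21.3 CPM in the KO libraries, against 4.45, 8.02, 8.79 and 4.05 CPM in the WT libraries (log2 fold change 1.99, SE 0.27, adjusted p = 0.00106), and Klc3 had a log2 fold change of 1.48 (SE 0.49, adjusted p = 0.0362), a call lost in 5 of the 8 fits that leave out a library (adjusted p up to 0.0901). Trak2, a mitochondrial adaptor, had -0.50 (SE 0.18, adjusted p = 0.046) with overlapping groups and lost its call in 6 of those fits (up to 0.117) and under each other scaling (0.051 to 0.172). For Klc4 and Klc3, WT replicates 1 and 4 were the lower WT libraries. Of 25 tested genes of dynein and its activator dynactin, which move cargo the other way, 4 fell, 3 rose and 18 did not pass (median 0.11), where 41.6% of all rows were called. Dynlt3, a dynein light chain, rose (log2 fold change 0.89, SE 0.18, adjusted p = 0.00497), and Nde1, a dynein regulator also used in mitosis, and Dync1li1, a light intermediate chain, fell by 1.15 and 0.48 (adjusted p = 0.0124 and 0.0134). The Dync1li1 call was lost with upper-quartile factors (0.0675), library size alone (0.0836) and the replicate block (0.0502), and both calls were lost with the close WT libraries summed (0.0609 for Nde1 and 0.057 for Dync1li1).

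Of 20 tested tubulins and microtubule-binding genes, the tracks of the motors, 11 fell and 2 rose (median -0.72), where 20.6% of all rows fell and 20.9% rose. In 5 of the 20 every KO library lay below every WT library, as in 19.6% of all rows. Tuba1b, an abundant alpha-tubulin, was at 1547, 864, 574 and 552 CPM in the KO libraries, against 4223, 2180, 2181 and 4045 CPM in the WT libraries. WT replicates 1 and 4 were the higher WT libraries and KO replicate 1 the highest KO library, and the log2 fold change was -1.84 (SE 0.39, adjusted p = 0.00608). Tuba1c followed it (log2 fold change -1.71, SE 0.39, adjusted p = 0.0083); their coding sequences are near-identical and can share reads. Against WT replicates 2 and 3 alone the calls of Tuba1b and Tuba1c were lost (adjusted p = 0.0641 and 0.0888). Mapre3, which binds growing plus ends, was at 31.2, 42.3, 37.1 and 34.3 CPM in the KO libraries, against 18.6, 14.3, 12.1 and 13.1 CPM in the WT libraries and rose (log2 fold change 1.32, SE 0.18, adjusted p = 0.000957).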

How the data were processed

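The authors deposited raw counts per gene for 4 KO and 4 WT libraries, in 2 tables with identical values, of which 1 was used. Per the submitters' processing notes, the tools were HISAT2 and StringTie and the build GRCm38. No counting program or strand setting is named there. Rows were filtered with filterByExpr (minimum count 10, minimum total 15), scaled with TMM and compared between genotypes by the quasi-likelihood F test of edgeR 4.0.16 in R 4.3.3, two-sided, with no covariates and Benjamini-Hochberg adjustment over all rows tested. The SE is the log2 fold change over the square root of F. Log2 CPM for permutation tests and ratios used a prior count of 2. Gene coordinates, overlaps and lengths (longest protein-coding transcript) came from the GENCODE annotation of GRCm38 that was supplied.

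The classes, lists, motifs and members were chosen with earlier results of these data known. Values per library are given for each tested mitotic kinesin, and for each tested kinesin of another class that passed or is among the 4 highest per kb in its class; from each of 6 partner lists the 3 genes with the smallest p are named. The remaining kinesins, and the overlapping genes, are named to account for every member. Alternatives were RLE, upper-quartile and library-size scaling, 2 other filters, DESeq2 1.42.0, limma-voom (limma 3.58.1), the replicate block, other class boundaries, and each library left out; those that sum or drop the close WT libraries were added after seeing the data. The steps were tested on counts simulated at the dispersion trend of these data. Of changes of 1.5-fold, 2-fold, 4-fold and 8-fold, 8%, 36%, 86% and 98% were called in the right direction. False calls numbered 5 among 13072 rows. Small changes could thus be missed, and a kinesin that did not pass is not shown to be unchanged. The simulated libraries were independent, with the same dispersion in both genotypes. The number of false calls under close WT pairs or a wider KO spread, as in these data, was therefore not tested.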

Additional observations from a re-analysis of the deposited data

Results flagged for a closer look

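Of 52 groups of 4 libraries examined over the tested kinesins, 2 held a library far from the other 3, where the gap to its nearest neighbour, as a share of the group's range, exceeded Dixon's 95% critical value; chance flags about 1 in 20 such groups. Kif5a was at 0.341 CPM in WT replicate 2, against 0.842 to 0.887 CPM in the other WT libraries. Kif18b was at 106 CPM in WT replicate 1, against 70 to 75.8 CPM in the others.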

How the results depend on the processing

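Over 492 refits of the 26 tested kinesins, under every alternative that gave a value, 427 kept the direction and the side of the threshold, 44 lost a call, 9 gained one and 12 turned direction, none of them in a gene called at first. The mitotic count was 10 or 11 under every scaling, filter and test; leaving out 1 library gave 7 to 11, summing the close WT libraries 4, and WT replicates 2 and 3 alone 2. Its median log2 fold change lay between -2.28 and -1.48 when 1 library was left out. The transport count was 2 to 5 when 1 library was left out (2 without KO replicate 2 or WT replicate 4) and 2 with the close WT libraries summed or with WT replicates 2 and 3 alone. The transport median was 0.13 with upper-quartile factors, 0.13 with library size alone, 0.13 with no filter on low counts and 0.10 with a minimum of 5 CPM in 4 libraries, and -0.11 to 0.03 when 1 library was left out. Under both filters the median covers another set of genes. Dropping the filter added Kif17 and Kif5c, and the minimum of 5 CPM removed Kif5a. The other class boundaries, in the same fit, count Kif2a as mitotic and Kif21a and Kif21b as transport. They gave 11 mitotic calls and left 0 among kinesins of other roles, since Kif2a was the called member there. That class also had 0 calls with the WT libraries summed and with WT replicates 2 and 3 alone. When 1 library was left out it had 0 to 1 (0 without KO replicate 2 or 3). The cilium count stayed at 1. Over all rows, 3134 were called (1482 lower, 1652 higher) with the WT libraries summed, 3085 (1293 and 1792) against WT replicates 2 and 3 alone, and 3809 to 6829 when 1 library was left out. Fits on fewer WT libraries have fewer samples by construction, and the other class boundaries only moved genes between classes. The cause of the remaining shifts was not tested.

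The labels give the replicate numbers no meaning, and same-numbered libraries did not deviate together (correlations of deviations from the group means -0.032 to -0.003). With the number as a block, 4683 rows, 11 mitotic kinesins and 2 transport kinesins were called (Kif3b and Kif5b lost their calls, 0.0616 and 0.0746, and Kif22 gained one, 0.0179).

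Directions turned in genes that did not pass. Kif5a was at 0.071 with upper-quartile factors, 0.075 with library size alone and 0.15 against WT replicates 2 and 3, and between -0.58 and 0.069 when 1 library was left out, positive without KO replicate 1 or 4. Kif1c was at -0.0094 with the WT libraries summed and -0.18 against WT replicates 2 and 3, and between -0.065 and 0.096 when 1 library was left out, negative without KO replicate 1, WT replicate 1 or WT replicate 4. Kif7 was at -0.020 against WT replicates 2 and 3, and between -0.0075 and 0.16 when 1 library was left out, negative without WT replicate 4. The 12 untested kinesins had too few counts for the filter, 5 of them without any count. Whether depth or lack of expression underlies this was not tested.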
